A study of Mus musculus with 9 samples.

Results

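The 10 genes described here encode proteins that run inflammasome signaling, pyroptosis, and necroptosis, and they were measured in the livers of mice treated with an agonist CD40 antibody. They are Nlrp3, Aim2, Pycard, Casp1, Casp4, Gsdmd, Zbp1, Ripk3, Mlkl, and Casp8, chosen by name from the 24341 genes of the deposited table, and all 10 were found in it with an estimate in every mouse. Liver RNA was sequenced 48 hours after treatment in 3 mice given anti-CD40, the agonist FGK45 (mice 2, 5, and 9), and in 6 control mice for which the sample records give PBS (mice 3, 4, 7, 8, 11, and 12). All mice were wild-type C57BL/6, and the records give no age, but the study's methods describe sex-matched young adult mice. The methods also state that treated mice without a fall in blood B cells were excluded. The records do not state whether any of these mice was replaced for that reason. Values are FPKM, a read number scaled to library size and transcript length, from 3′-end libraries. FPKM was compared only between mice, for the same gene or summed over the same genes, or as a change. The reason is that a 3′-end library does not give more reads to a longer transcript.

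An inflammasome is a protein complex that forms in the cytosol when a sensor such as NLRP3 or AIM2 meets a danger signal or foreign DNA. The sensor recruits the adaptor ASC, encoded by Pycard, which gathers caspase-1. Caspase-1 matures IL-1β and IL-18 and cuts gasdermin D, whose freed end makes pores in the cell membrane, the event that defines pyroptosis. In mice Casp4 encodes caspase-11, which senses bacterial lipopolysaccharide directly and also cuts gasdermin D. Necroptosis is a separate lytic death in which ZBP1 or death receptors activate the kinase RIPK3, which phosphorylates the membrane-breaking protein MLKL, and caspase-8 holds this pathway in check. In the resting liver most of these genes are used by Kupffer cells, other leukocytes, and endothelium, and several can be induced by interferons and NF-κB.

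Sequence upstream of the genes was searched for motifs of NF-κB and of interferon signaling, as a description with no test. RefSeq promoter windows of GRCm38.p6 (the assembly that mm10 names), from 250 bases before to 50 after a transcription start, were given for 8 of the 10 genes in 10 windows. Gsdmd and Zbp1 had no entry. The motifs searched on both strands were GGNNNTTCC for NF-κB, GAAANNGAA for the core of the interferon-stimulated response element, and TTCNNNGAA for the gamma-activated sequence GAS. They occur in 18.5%, 8.56%, and 8.30% of the 32851 windows of the genome. These are shares of windows, whereas the 8 genes are counted by gene, and Casp4 and Nlrp3 had more than 1 window each. Casp4 and Nlrp3 held the NF-κB letters, Ripk3 those of the interferon element, and none of the 8 genes those of GAS. A window of each is printed 5′ to 3′ on the strand of the gene, with the motif letters in capitals; none of the matches overlap one another. Casp4 (plus strand, chr9:5308599-5308898) is shown for its 3 NF-κB matches, which begin at -92, -39, and -14 from the start. Nlrp3 (plus strand, chr11:59542436-59542735) has 1 match, at -94, and a second Nlrp3 window upstream has 2. Ripk3 (minus strand, chr14:55788808-55789107) has 1 interferon element match, at 14 after the start. A match is a description of letters and not a site of binding.
Casp4: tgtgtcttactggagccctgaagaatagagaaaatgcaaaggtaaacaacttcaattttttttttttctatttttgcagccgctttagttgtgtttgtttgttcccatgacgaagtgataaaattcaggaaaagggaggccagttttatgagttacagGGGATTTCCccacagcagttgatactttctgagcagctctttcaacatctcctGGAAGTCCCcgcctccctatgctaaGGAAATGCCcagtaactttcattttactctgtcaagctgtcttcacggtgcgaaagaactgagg
Nlrp3: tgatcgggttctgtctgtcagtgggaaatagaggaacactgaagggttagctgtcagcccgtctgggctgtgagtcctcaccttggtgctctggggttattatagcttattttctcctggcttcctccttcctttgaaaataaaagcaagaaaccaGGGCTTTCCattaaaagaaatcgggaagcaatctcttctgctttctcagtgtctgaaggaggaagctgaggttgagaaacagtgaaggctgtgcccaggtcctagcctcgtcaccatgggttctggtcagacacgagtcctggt
Ripk3: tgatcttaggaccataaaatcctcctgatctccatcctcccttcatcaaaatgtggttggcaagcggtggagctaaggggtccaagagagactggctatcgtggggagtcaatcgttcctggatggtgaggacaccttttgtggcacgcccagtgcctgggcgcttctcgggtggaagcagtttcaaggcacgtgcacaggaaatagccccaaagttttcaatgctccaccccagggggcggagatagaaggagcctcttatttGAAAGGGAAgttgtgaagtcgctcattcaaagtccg

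After anti-CD40, 9 of the 10 genes were higher, and Casp8 did not pass the test. Relative to control livers, Pycard was 8.07-fold, Casp4 7.68-fold, and Zbp1 6.63-fold higher, whereas Gsdmd was 1.92-fold higher. These are bulk livers, so a change in the number of cells that use a gene and a change in RNA per cell cannot be told apart. All 8 pan-leukocyte genes rose in the same mice, and the part of infiltrating cells in these changes was not tested. The 9 genes had an adjusted p under 0.05 in the direction of higher expression (limma across all genes), a result that 23.5% of the 13807 genes tested shared. All 10 passed the filter on low values, set at an average of 0.1 FPKM over the 9 mice. In the same 9 genes every anti-CD40 mouse was above every control mouse, as it was in 22.7% of the genes tested; in either direction 42.4% had groups apart, and 19.6% had every anti-CD40 mouse lower, against 0 of the 10. The exact permutation p of each of the 9 was 0.0238, the smallest that the 84 splits of the mice allow. Of the 10, 8 were called and at least 2-fold higher (13.7% of the genes tested), and none was called lower, whereas 21.7% of the genes tested were. The median log2 fold change of the 10 was 1.90, against 0.0056 over all genes tested. The acute-phase genes Saa1, Saa2, and Saa3 took 25.4% to 25.9% of the summed FPKM in treated and 0.0449% to 0.380% in control mice, and with them left out and each mouse rescaled these medians were 2.26 and 0.35. Fold changes are on the scale of FPKM + 0.1, which understates the change of low genes.

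**Figure D1:**
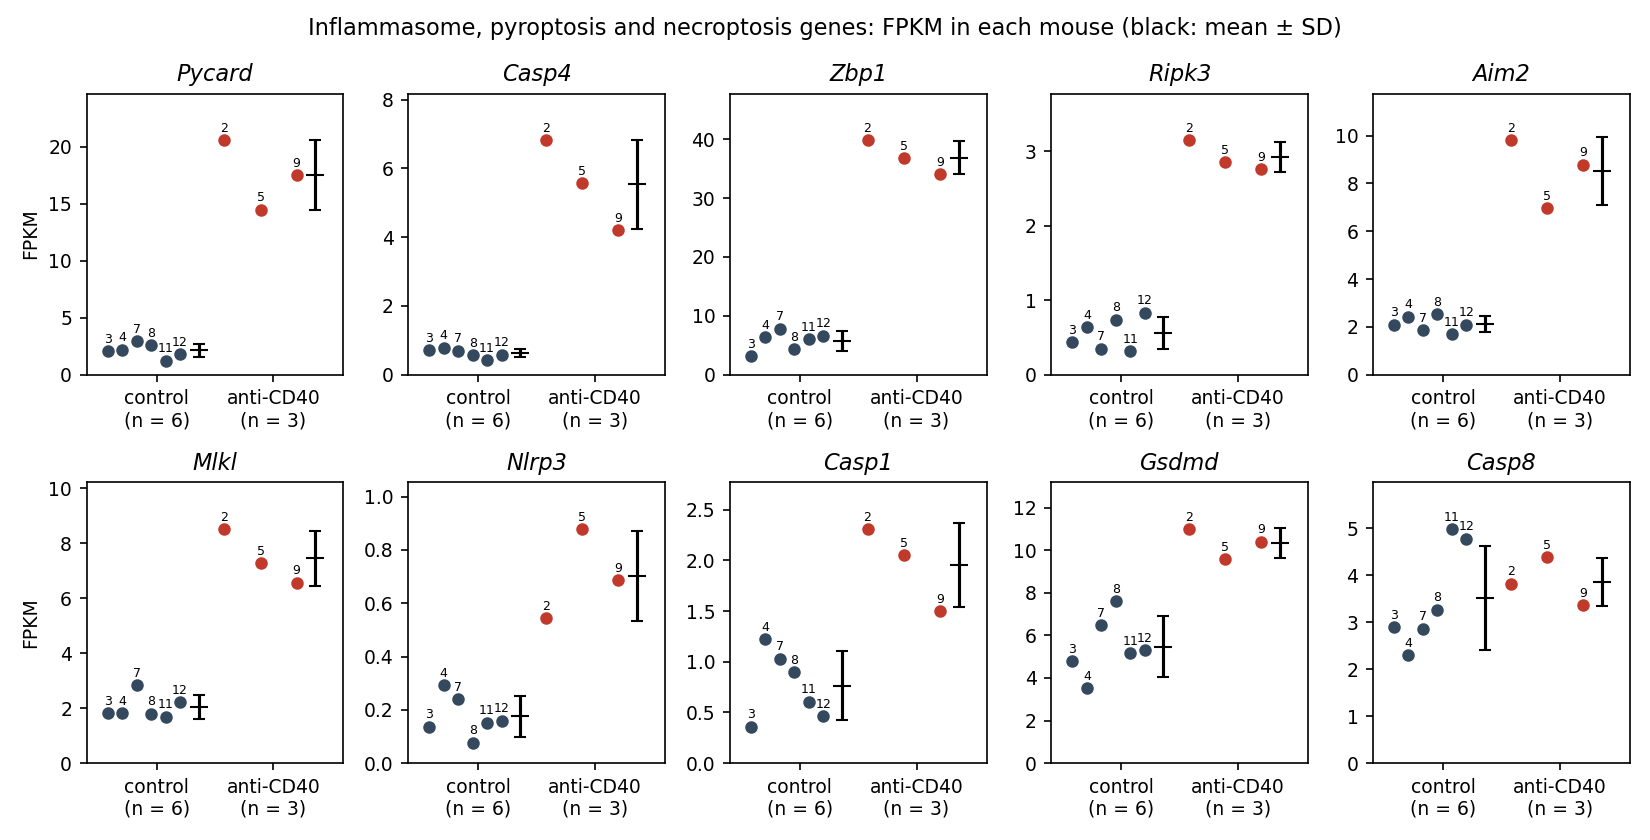
FPKM of each gene in every mouse, on linear axes that start at 0, with control mice in dark blue, anti-CD40 mice in red, mouse numbers above the points, and the mean ± SD in black. In 9 panels the groups do not overlap, and in the Casp8 panel the 3 anti-CD40 mice, from 3.36 to 4.39, lie within the control range of 2.30 to 4.98.

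Among the adaptor and sensors, Pycard encodes ASC, through which AIM2 and NLRP3 reach caspase-1. Pycard lies on the minus strand of chromosome 7 of mm10, from 127991373 to 127993867. Anti-CD40 mice 2, 5, and 9 had 20.6, 14.5, and 17.5 FPKM, and in control mice the lowest, median, and highest were 1.23, 2.12, and 2.92. The lowest anti-CD40 mouse was thus far above the highest control. The treated mean of 17.5 ± 3.04 (SD, n = 3) stood against a control mean of 2.13 ± 0.591 (SD, n = 6), which gives a log2 fold change of 3.01 ± 0.24 (SE; limma adjusted p = 6.14e-06). Pycard ranked 274 among all genes tested by size of increase, the highest place of the 10.

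Aim2, whose product senses double-stranded DNA in the cytosol, lies on the plus strand of chromosome 1, from 173420604 to 173466036. Anti-CD40 mice 2, 5, and 9 had 9.80, 6.97, and 8.79 FPKM, against a lowest, median, and highest control of 1.70, 2.09, and 2.54. The control mice were closer together here than in any of the other 9 genes, with an SD of 15.2% of the mean. The log2 fold change was 1.96 ± 0.16 (SE; limma adjusted p = 7.72e-06), a 3.88-fold increase with a 95% interval of 3.02 to 4.99.

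Nlrp3, the sensor of potassium loss and membrane damage, had the fewest reads in control mice of the 9 genes for which reads were recovered. It lies on the plus strand of chromosome 11, from 59542686 to 59566956. Treated mice 2, 5, and 9 had 0.543, 0.879, and 0.688 FPKM, whereas the lowest, median, and highest control had 0.0768, 0.156, and 0.292. Mouse 5 was the highest here, and mouse 2, which was the highest in 8 of the 10 genes, was the lowest of the treated mice. The log2 fold change was 1.57 ± 0.27 (SE; limma adjusted p = 8.82e-04). The value depends on the constant added before taking logs, being 0.53 when that constant is 1 and 2.02 when it is 0.01.

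The inflammatory caspases Casp1 and Casp4 are neighbors on the plus strand of chromosome 9, Casp1 from 5298517 to 5307281 and Casp4 from 5308849 to 5336791. For Casp4, anti-CD40 mice 2, 5, and 9 had 6.82, 5.58, and 4.20 FPKM, whereas the lowest, median, and highest control had 0.428, 0.642, and 0.783. The lowest treated mouse exceeded every control, and the log2 fold change was 2.94 ± 0.21 (SE; limma adjusted p = 2.88e-06). For Casp1, anti-CD40 mice 2, 5, and 9 had 2.31, 2.05, and 1.497 FPKM, whereas the lowest, median, and highest control had 0.361, 0.752, and 1.22. Control mouse 4 therefore came close to anti-CD40 mouse 9. The log2 fold change of Casp1 was 1.33 ± 0.33 (SE; limma adjusted p = 0.00817), with the widest interval of the 10, from 0.59 to 2.07. Casp1 and Casp4 are paralogs, and reads matching both could have been shared between them.

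Both pore formers rose. Gsdmd, on the plus strand of chromosome 15 from 75862339 to 75867404, had an FPKM of 11.0, 9.59, and 10.4 in anti-CD40 mice 2, 5, and 9, and of 3.52, 5.22, and 7.61 in the lowest, median, and highest control. The treated mice lay close together above a wide control range. The log2 fold change was 0.94 ± 0.21 (SE; limma adjusted p = 0.00407), and the 95% interval of the fold was 1.39 to 2.64. Mlkl, on the minus strand of chromosome 8 from 111311800 to 111337903, had an FPKM of 8.53, 7.27, and 6.57 in mice 2, 5, and 9, and of 1.70, 1.82, and 2.83 in the lowest, median, and highest control. Mlkl, whose product breaks the membrane in necroptosis, rose 3.58-fold with a 95% interval of 2.73 to 4.69 (limma adjusted p = 1.85e-05). The intervals of Gsdmd and Mlkl did not meet, but the difference between these changes was not among the ratios tested.

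Upstream of Mlkl, Zbp1 and Ripk3 both rose. Zbp1, a sensor of Z-form nucleic acid that is inducible by interferon, lies on the minus strand of chromosome 2 from 173206612 to 173218922. Anti-CD40 mice 2, 5, and 9 had 39.8, 36.8, and 34.1 FPKM, whereas the lowest, median, and highest control had 3.09, 6.21, and 7.82. The treated mice had an SD of 2.85 around a mean of 36.9, and the log2 fold change was 2.73 ± 0.25 (SE; limma adjusted p = 1.64e-05). Ripk3, the kinase that activates MLKL, lies on the minus strand of chromosome 14 from 55784995 to 55788857. Treated mice 2, 5, and 9 had 3.15, 2.86, and 2.76 FPKM, whereas the lowest, median, and highest control had 0.318, 0.541, and 0.834. The lowest treated mouse was above the highest control, and the log2 fold change was 2.27 ± 0.27 (SE; limma adjusted p = 8.26e-05).

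Casp8, which encodes the protease that cleaves RIPK1 and RIPK3 and thereby restrains necroptosis, did not pass the test. It lies on the plus strand of chromosome 1 from 58795374 to 58847503. In anti-CD40 mice 2, 5, and 9 it had 3.82, 4.39, and 3.36 FPKM, whereas the lowest, median, and highest control had 2.30, 3.08, and 4.98. The treated mice lay inside the control range. The log2 fold change was 0.18 ± 0.24 (SE; limma adjusted p = 0.577; exact permutation p = 0.500), and the 95% interval of the fold ran from 0.780 to 1.64. The intervals of Pycard, Casp4, Zbp1, Ripk3, Aim2, Mlkl, and Nlrp3 lay wholly above that of Casp8, and those of Casp1 and Gsdmd met it.

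**Figure D2:**
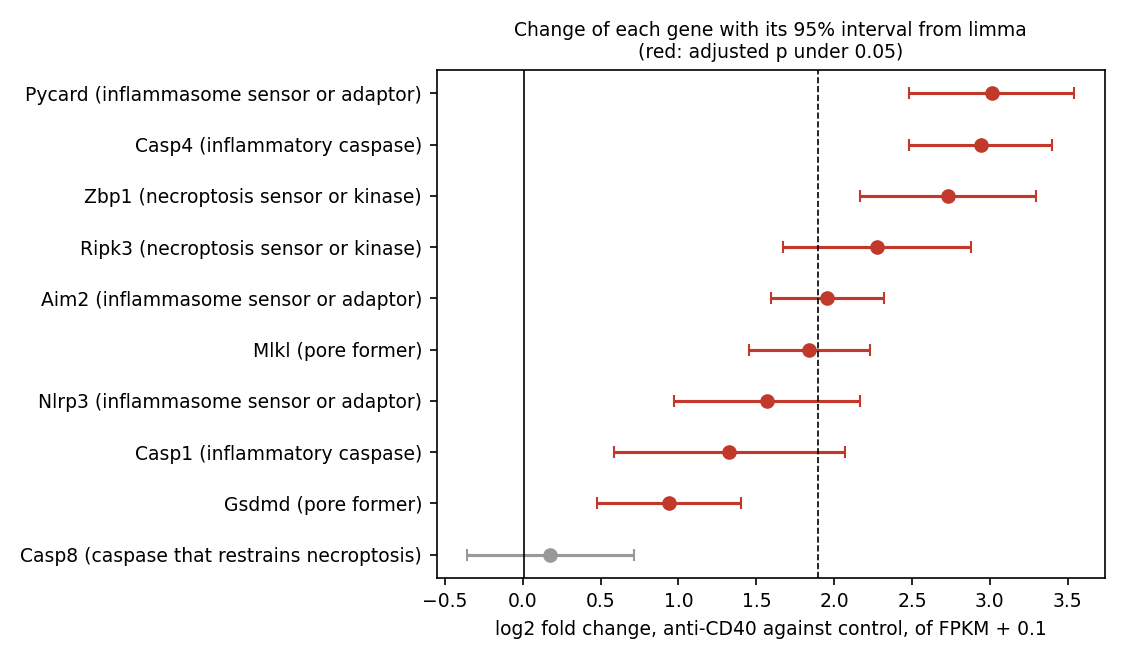
Log2 fold change of FPKM + 0.1 after anti-CD40 for each gene, with its 95% interval from limma, red where the adjusted p was under 0.05 and grey where it was not. The solid line marks the median of all genes tested (0.0056) and the dashed line the median of the 10 (1.90); the points run from 3.01 for Pycard to 0.18 for Casp8.

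Absolute depth is not known, but relative read numbers can be recovered from the steps between values. Low FPKM values are whole multiples of what 1 read is worth, and for 9 of the 10 genes the values of all 9 mice came out as whole reads to within 0.00709 reads. The numbers are the smallest that match, so the true reads could be a multiple of them. For Zbp1 no whole numbers were found. Pycard had 880, 583, and 657 reads (mice 2, 5, and 9) against 45 to 117 in the control mice. Casp4 had 187, 144, and 101 reads in the treated mice and 10 to 20 in the control mice. Nlrp3 rested on 46, 70, and 51 reads against 5 to 23, Casp1 on 67, 56, and 38 against 9 to 33, and Ripk3 on 116, 99, and 89 against 10 to 25. Aim2, Mlkl, Gsdmd, and Casp8 had at least 46 reads in every mouse. Casp8 had 144 to 202 reads in the treated mice and 105 to 208 in the control mice.

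The spread between mice can be set beside the counting error that these read numbers would give. In control mice the SD of Casp8 was 31.4% of its mean, whereas its reads give a counting error of 8.52%. For Gsdmd the same values were 25.8% and 8.02%. For Casp4 they were 20.5% and 26.6%. With more reads than the smallest matching numbers, the counting errors would be smaller. The treated mice differed in Ripk3 by 6.96%, with a counting error of 9.99%, and in Casp4 by 23.6%, with a counting error of 8.60%. These errors assume that each read is an independent molecule.

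Anti-CD40 mouse 2 was the highest treated mouse in 8 of the 10 genes, all but Nlrp3 and Casp8, in which mouse 5 was the highest. Anti-CD40 mouse 9 was the lowest in 6 genes (Casp1, Casp4, Mlkl, Zbp1, Ripk3, and Casp8). Among control mice, mouse 11 was the lowest in 5 genes and the highest in Casp8, and mouse 4 was the highest in Nlrp3, Casp1, and Casp4 but the lowest in Gsdmd and Casp8. Relative depth, set to a geometric mean of 1, was 0.991 to 1.13 in the treated mice and 0.870 to 1.06 in the control mice. The sample of anti-CD40 mouse 5 also held pancreatic acinar transcripts, with a summed FPKM of 335 over 5 acinar genes, against 0.353 to 2.06 in the other 8 mice. Without mouse 5 the log2 fold change of Nlrp3 was 1.41 and that of Casp8 0.08, and with both mouse 5 and control mouse 4 left out, 9 of the 10 genes were still called.

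To ask whether partners in a pathway changed to the same degree, log2 ratios of 2 genes were taken within each mouse for 7 pairs. Each ratio used FPKM + 0.1, so transcript length and library scale nearly cancel only where both genes are well above 0.1. For low genes they do not cancel, and the control values of Nlrp3 began at 0.0768. In 3 pairs the groups did not overlap (exact permutation p = 0.0238 each, 2-sided), but after adjustment over the 7 pairs the p was 0.0556, so none passed at 0.05. Anti-CD40 mice 2, 5, and 9 had a log2 ratio of Casp4 to Casp1 of 1.52, 1.40, and 1.43, against -0.58 to 0.83 in control mice, a difference of 1.61 toward the caspase that senses lipopolysaccharide. The ratio of Casp8 to Ripk3 was 0.27, 0.60, and 0.28 in mice 2, 5, and 9 and 1.70 to 3.60 in control mice, a difference of -2.10 that moved away from the caspase and toward the kinase. The ratio of Aim2 to Pycard was -1.06, -1.04, and -0.99 in mice 2, 5, and 9 and -0.62 to 0.43 in control mice, a difference of -1.06. The sensor was lower relative to the adaptor in each treated mouse than in any control mouse.

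Other partners kept ratios that overlapped between the groups. That of Zbp1 to Ripk3 came to 3.62, 3.64, and 3.58 in the treated mice 2, 5, and 9, a spread far narrower than the 2.40 to 4.14 of the control mice, in which Ripk3 rested on 10 to 25 reads. The difference between the groups was 0.46 (exact permutation p = 0.357). For Mlkl to Ripk3 it was -0.43 (exact permutation p = 0.333), and for Gsdmd to Casp1 -0.39 (exact permutation p = 0.452). The ratio of Nlrp3 to Pycard had a difference of -1.45 (exact permutation p = 0.0476, adjusted p = 0.0833), with anti-CD40 mouse 5 at -3.90 just above the lowest control, mouse 8, at -3.92.

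**Figure D3:**
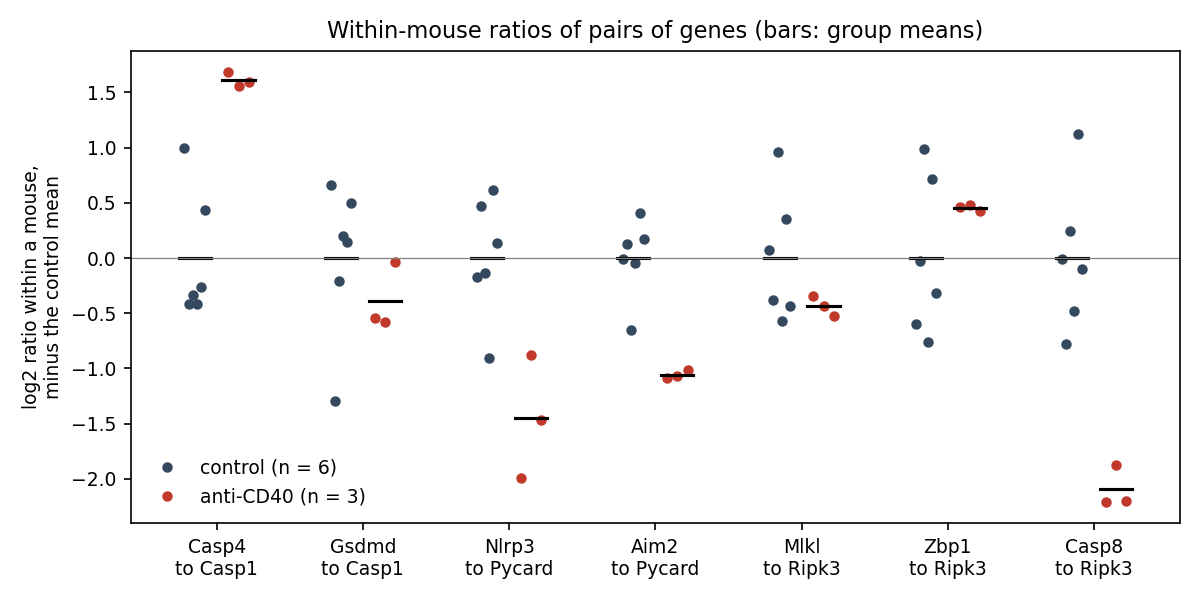
Log2 ratio of 2 genes (FPKM + 0.1) within each mouse, with the mean of the control mice subtracted. Control mice are in dark blue, anti-CD40 mice in red, and group means are black bars. Casp4 to Casp1 lies above all control mice, Aim2 to Pycard and Casp8 to Ripk3 lie below them, and the other 4 pairs overlap.

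The wider pathway was described with 69 genes in 7 lists, of which 60 passed the filter, 28 were called higher, and 4 were called lower. Over all genes tested, 23.5% were called higher and 21.7% lower. With the Saa genes left out and each mouse rescaled, 42 of these genes were called higher and 0 lower. That setting also called more of all genes tested higher, 5635 against 3240, and fewer lower, 1647 against 2990. The 42 and 0 are therefore not to be set beside the 23.5% and 21.7%. With the Saa genes kept and no rescaling, the median log2 fold change of the 60 genes was 0.50. Of 11 genes tested for other inflammasome sensors and for proteins that trigger or license them, such as Nek7, Txnip, and P2rx7, 6 rose and 1 fell, with a median of 0.66. Mefv, which encodes pyrin, rose most, from 0.218 ± 0.124 (SD, n = 6) to 2.21 ± 0.714 (SD, n = 3), a 7.43-fold increase (limma adjusted p = 3.98e-05). Nlrc4 rose 3.54-fold, and its partners Naip1, Naip2, Naip5, and Naip6, which recognize bacterial flagellin and secretion systems, rose 1.58-fold to 2.62-fold. The Naip genes are close paralogs among which reads could be split, and with quantile normalization the calls on Naip1 (adjusted p = 0.0630), Naip5 (0.305), and Naip6 (0.0540) were lost. The call on Naip5 was also lost without anti-CD40 mouse 2 or 5 (0.0516 to 0.0552). Nlrp6, a sensor known from epithelial cells, fell from 11.9 ± 1.39 (SD, n = 6) to 7.61 ± 1.13 (SD, n = 3), with the groups apart (limma adjusted p = 0.00320). That call was lost when the Saa genes were left out and each mouse rescaled (adjusted p = 0.0862).

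Among cytokines of the IL-1 family, the genes for the antagonists rose with the smallest adjusted p. Il1rn, which encodes the IL-1 receptor antagonist, had an FPKM of 93.0, 78.1, and 80.3 in anti-CD40 mice 2, 5, and 9 and of 3.16 to 11.0 in control mice, a 14.9-fold increase (limma adjusted p = 7.78e-06). Il18bp, whose product binds and blocks IL-18, rose 4.54-fold (limma adjusted p = 1.73e-05). Il18 itself fell from 124 ± 38.9 (SD, n = 6) to 59.7 ± 12.3 (SD, n = 3), to 0.499 of the control level (FPKM + 0.1; limma adjusted p = 0.0109), with the highest treated mouse at 73.3 just under the lowest control at 74.7. The call on Il18 was lost in 4 of 19 alternatives, quantile normalization (adjusted p = 0.0804), the Saa genes left out (0.0772), and the 2 without anti-CD40 mouse 5 (0.0532 and, with control mouse 4 also left out, 0.0540). Il1b rose from 5.82 ± 5.56 (SD, n = 6) to 15.2 ± 1.82 (SD, n = 3), but control mouse 4 at 14.6 lay within the treated range, and the call (limma adjusted p = 0.0387) was lost in 9 of 19 alternatives, 7 of them those without anti-CD40 mouse 2, 5, or 9 or control mouse 7, 8, 11, or 12 (0.0638 to 0.113). The log2 fold change of Il1a was 0.37 (limma adjusted p = 0.299).

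Of the 6 GTPases that act on caspase-11 or Aim2 signaling at bacterial membranes, 5 rose, with a median of 2.18 (23.5% of all genes tested were called higher). Gbp2 rose most, 8.01-fold, from 2.33 ± 1.19 (SD, n = 6) to 17.8 ± 1.47 (SD, n = 3), with a limma adjusted p of 4.37e-05. Gbp5 rose 6.95-fold, and the gene for IRGB10, which the table lists as Gm12250, 4.50-fold. The exception was Irgm2, a restraint on caspase-11, with a log2 fold change of 0.58 (limma adjusted p = 0.111). It was called higher with quantile normalization (0.77, adjusted p = 0.0410) and with the Saa genes left out (0.94, adjusted p = 0.0228). Gbp genes are close paralogs, so reads could be shared among them.

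Of 19 genes tested that signal upstream of RIPK3 or regulate it, 7 rose, 0 fell at the threshold, and the median was 0.32 (23.5% of all genes tested were called higher and 21.7% lower). Tnfaip3, which encodes the ubiquitin-editing inhibitor A20, rose most, 8.60-fold, from 0.243 ± 0.119 (SD, n = 6) to 2.70 ± 0.229 (SD, n = 3). Birc2 and Birc3, which encode the ubiquitin ligases cIAP1 and cIAP2, rose 3.09-fold and 4.69-fold. Adar, whose product edits the double-stranded RNA that can engage ZBP1, rose 2.44-fold, and the sensors Eif2ak2 and Tlr3 rose 1.68-fold and 1.73-fold. Tnfrsf1a, the TNF receptor through which necroptosis can start, rose 1.44-fold. The core partners Ripk1 (log2 fold change 0.18, limma adjusted p = 0.203), Fadd (0.15, adjusted p = 0.497), and Cflar (-0.46, adjusted p = 0.132) did not pass. With the Saa genes left out, Ripk1 (0.54, adjusted p = 0.00230) and Fadd (0.49, adjusted p = 0.0265) were called higher. Cflar encodes the caspase-8 regulator cFLIP.

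Of 4 transcription factors that control these genes, Irf8 rose 4.70-fold, from 5.12 ± 1.03 (SD, n = 6) to 24.0 ± 0.713 (SD, n = 3). Irf1 (log2 fold change 0.33, limma adjusted p = 0.179) and Irf2 (0.32, adjusted p = 0.0648), which is known to drive Gsdmd, did not pass, although every treated mouse was above every control for Irf2. Both were called higher with quantile normalization (Irf1 adjusted p = 0.0318, Irf2 0.0121) and with the Saa genes left out (0.0107 and 7.46e-04), and Irf2 also without control mouse 12 (0.0385). Of 10 genes for other gasdermins, caspase-12, and the membrane rupture protein NINJ1, 3 passed the filter on low values. Casp12, next to Casp4 on the chromosome, rose 2.04-fold (limma adjusted p = 0.0275, lost in 6 of 19 alternatives, 4 of them those without anti-CD40 mouse 2 or 5 or control mouse 3 or 8, at 0.0503 to 0.138). Ninj1 was lower, with an FPKM of 36.6, 63.4, and 21.6 in anti-CD40 mice 2, 5, and 9 and 53.5 to 83.3 in control mice. Its call (log2 fold change -0.82, limma adjusted p = 0.0363) was lost in 9 of 19 alternatives, and mouse 5 lay within the control range. Of these, 6 were those without anti-CD40 mouse 2 or 9 or control mouse 3, 4, 7, or 12, at an adjusted p of 0.0549 to 0.175.

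**Figure D4:**
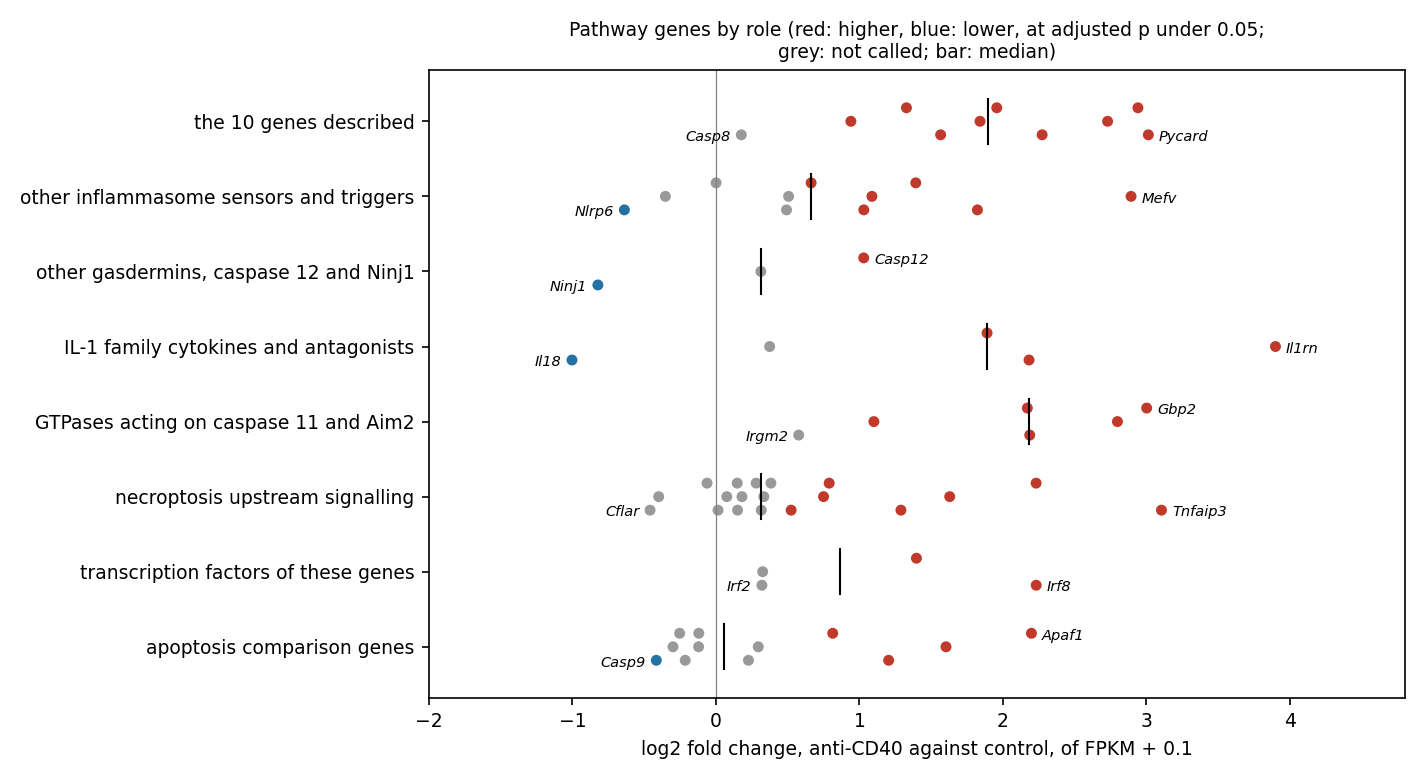
Log2 fold change after anti-CD40 of every gene tested in the 10 genes described and in the 7 wider lists, red where called higher, blue where called lower, grey where not called, with a bar at each median and the lowest and highest gene named. The median of the 10 is 1.90, that of the GTPases 2.18, and that of the apoptosis genes 0.05.

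The 8 pan-leukocyte genes had a median log2 fold change of 2.45 and a summed FPKM of 1107 to 1612 in treated and 155 to 252 in control mice. For scale, 23.5% of all genes tested were called higher and 21.7% lower. All 5 neutrophil genes tested rose (summed FPKM 4203 to 5184 against 17.9 to 152), as did 5 of 6 monocyte and macrophage genes (285 to 402 against 33.3 to 66.6), 4 of 5 T cell genes, all 4 NK cell genes tested, and all 4 B cell genes. All 6 Kupffer cell genes fell (38.7 to 50.3 against 272 to 429), and so did all 6 hepatocyte genes (4319 to 5393 against 12867 to 24916). Of 5 endothelial genes 2 rose and 1 fell, and of 4 cholangiocyte genes 1 rose, Sox9. The part of these cells in the changes of the 10 genes was not tested.

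The 10 genes were also set against the leukocyte genes in the same mouse. The mean log2 level of the 8 pan-leukocyte genes was subtracted from each gene in each mouse, a description made after the data were seen and given without a test. That mean rose by 2.32, so each difference below is the change of the gene less that rise. The 8 genes themselves rose by 1.05 (Laptm5) to 3.10 (Cd52) on the log2 scale, so the outcome depends on the reference. The part of infiltrating cells was not tested. Pycard and Zbp1 were then higher in every treated mouse than in every control, by 0.70 and 0.41 on average, although Zbp1 was apart by a small margin, with a lowest treated mouse of 0.04 and a highest control of 0.03. Casp1, Gsdmd, and Casp8 were lower in every treated mouse, with differences of -0.99, -1.38, and -2.14. Casp4, Ripk3, Aim2, Mlkl, and Nlrp3 overlapped between the groups, with differences from 0.62 for Casp4 to -0.75 for Nlrp3.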

How the data were processed

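RNA from the livers of 9 mice was made into QuantSeq 3′ libraries by the authors, sequenced, aligned to mm10 with STAR, and quantified with Cufflinks and CuffDiff, the tools that the submitters' processing notes name without versions. The authors deposited FPKM per gene and mouse, with a floor of 0.01. The annotation and the filter on the table are not given in the sources used here. FPKM carries no read totals, so absolute depth is unknown.

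Of 24341 genes, 15 were dropped because CuffDiff marked at least 1 value as failed. The 13807 genes that averaged 0.1 FPKM or more were tested as log2(FPKM + 0.1) with limma 3.58.1 in R 4.3.3 (treatment in the model alone, variance trend on, 2-sided), with Benjamini-Hochberg adjustment over all of them and calls at 0.05. No further scaling was added. Single values were tested with the exact permutation test over 84 splits, and for the 7 ratios p was adjusted over the pairs. Reads were taken from the steps between low values, with a tolerance of 0.1 reads; 64.1% of the genes tested came out whole, so no count test was run. In simulated data 200 of 13807 genes were changed. Of those changed by a log2 fold change of 2, 93% were recovered, and of those changed by 1, 70%, with 5 false calls. In the real data 45.1% of the genes tested were called, so these rates may not carry over.

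The members and lists were chosen with earlier results of these data known. All 10 members are named, and of each list the largest called increase and decrease; further list genes were named after their values were seen, and some list genes are counted but not reported here by name. Positions are those of the table, counted from 1, and strand and overlaps are from GENCODE M21. Minor annotated transcripts overlap Pycard, Mlkl, and Casp8, none of them at a 3′ end. Replicates are separate mice by their numbers in the labels, and no batch is named. Alternatives were a pseudocount of 1 or 0.01, a filter at 1 FPKM or none, quantile and median of ratios scaling, rescaling without Saa1, Saa2, and Saa3, eBayes without trend or robust, and leaving out each mouse. Leaving out mice 4 and 5 together was added after the data were seen. Protein sequences were not used here. Python 3.11.15 with numpy 2.4.6, pandas 2.3.3, and matplotlib 3.10.9 did the remaining steps.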

Additional observations from a re-analysis of the deposited data

How the results depend on the processing

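Of the 10 members, 9 were called higher and 0 lower under every alternative except the filter at a mean FPKM of at least 1, which removes Nlrp3 and left 8. Without each mouse in turn the count stayed at 9. The adjusted p of Casp1, the largest of the 9, ran from 0.00213 to 0.0433 over its 19 alternatives, the highest without anti-CD40 mouse 2. The adjusted p of Casp8 stayed above 0.05 in 19 alternatives. Its log2 fold change turned to -0.025 with anti-CD40 mouse 5 and control mouse 4 both left out. With the Saa genes left out and each mouse rescaled it was 0.53, with the lowest adjusted p of Casp8, 0.0735. Without Saa1, Saa2, and Saa3 and with each mouse rescaled, the median of all genes moved from 0.0056 to 0.35 and that of the members from 1.90 to 2.26. Calls over all genes then numbered 5635 higher and 1647 lower, against 3240 and 2990, so that the percent of called genes that were higher went from 52.0 to 77.4. In the wider lists that setting called 42 genes higher, against 28, and 0 lower, against 4; quantile normalization left 2 called lower, and leaving out each mouse 2 to 4.

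The within-mouse ratios moved with the pseudocount. With a pseudocount of 1, the difference was 0.078 for Gsdmd to Casp1 and 0.14 for Mlkl to Ripk3, both of which turned sign, and 1.19 for Zbp1 to Ripk3 (exact permutation p = 0.0238). That pseudocount also moved Casp8 to Ripk3 from -2.10 to -1.21 and Nlrp3 to Pycard from -1.45 to -2.04 (exact permutation p = 0.0238 for each). With 0.01, Nlrp3 to Pycard was -1.05 (exact permutation p = 0.0952). With each mouse left out, the difference stayed between 1.53 and 1.81 for Casp4 to Casp1, between -1.19 and -0.97 for Aim2 to Pycard, between -2.25 and -1.87 for Casp8 to Ripk3, and between -1.73 and -1.18 for Nlrp3 to Pycard. The exact permutation p cannot go below 0.0714 without a treated mouse, so the unadjusted p of a pair then cannot pass 0.05; no pair passed after adjustment in the first place. Among the named genes that were not called, Fadd (-0.18) and Il1a (-0.052) turned sign with quantile normalization. No paired analysis was possible because the groups share no mouse number.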

Other observations

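Apoptosis genes, listed for comparison with the lytic pathways, were tested in the same fit. Of 12, 4 rose and 1 fell, with a median log2 fold change of 0.05, beside 23.5% called higher and 21.7% called lower over all genes tested. Apaf1, which forms the apoptosome, rose most, from 0.562 ± 0.190 (SD, n = 6) to 2.84 ± 0.310 (SD, n = 3), a 4.59-fold increase (limma adjusted p = 4.93e-05). Bax, the mitochondrial pore former, rose 3.04-fold, Casp2 2.30-fold, and Bid, a substrate of caspase-8, 1.76-fold. Casp9, the caspase that the apoptosome activates, fell with a log2 fold change of -0.42 (limma adjusted p = 0.0269), and that call was lost in 3 of 19 alternatives, those without anti-CD40 mouse 2 or 5 (0.0637 to 0.134) and the one with the Saa genes left out and each mouse rescaled, in which the value was -0.060 (adjusted p = 0.703).

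The genes whose profile over the 9 mice was nearest to the mean profile of the 10 members were Sh3kbp1, Loxl2, Ptpre, Gimap5, and Bok. The root mean square difference on the log2 scale was 0.118 for Sh3kbp1 and 0.127 for Bok, and their log2 fold changes ran from 1.76 for Bok to 2.00 for Sh3kbp1. Bok encodes a relative of BAX, and mice 2, 5, and 9 had 23.5, 22.0, and 20.6 FPKM, against 5.00 to 7.86 in control mice. Gimap5, a GTPase gene of lymphocytes, had 5.66 to 7.48 in treated and 1.31 to 2.05 in control mice. The likeness is a description over mice that share 1 contrast.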
